A study of Mus musculus with 14 samples.

Results

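Lipopolysaccharide recognition genes are 10 of the 29923 genes in the deposited expression table of MYC-driven mouse liver tumours. They were taken by name and role: the serum carrier gene Lbp, the co-receptor gene Cd14, the receptor genes Tlr4 and Ly96, the adaptor genes Myd88, Tirap and Ticam1, and the inhibitor genes Irak3, Tnfaip3 and Nfkbia. They were chosen because lipopolysaccharide is the best-known substrate of acyloxyacyl hydrolase, the enzyme encoded by Aoah, which was delivered to some of the tumours. All 14 tumours arose in C57BL/6 mice after plasmids were forced into the liver by tail-vein injection, together with SB100, the Sleeping Beauty enzyme that lets the plasmid cargo integrate into chromosomes. The Luc groups received pT3-EF1a-MYC-IRES-luciferase, in which the EF1a promoter drives MYC and luciferase, and the LucOS groups received the version that adds the OVA, SIN and SIY antigens. Each was combined with PKT2/CLP-Aoah or with the empty plasmid PKT2/CLP-Vec, giving 4 Luc vector, 4 Luc Aoah, 3 LucOS vector and 3 LucOS Aoah tumours. A plasmid for truncated beta-catenin, pT3-N90-CTNNB1, is also listed without a statement of which tumours received it, and an anti-PD1 protocol is given, with no word on whether it was applied to the tumours sequenced. The age of the mice is not given. No label states that each tumour came from its own animal, so p-values measure the spread between these samples, which may be technical.

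Lipopolysaccharide is the major outer membrane glycolipid of Gram-negative bacteria and reaches the liver through the portal vein. Lbp, secreted mainly by hepatocytes as an acute phase protein, lifts single molecules out of bacterial membranes and hands them to CD14, which passes them to the complex of TLR4 and MD-2, the product of Ly96. The complex signals from the plasma membrane through TIRAP and MyD88 to NF-kB, and from endosomes through TRIF, the product of Ticam1, to interferon regulatory factors. Irak3, Tnfaip3 and Nfkbia encode inhibitors of this signalling, and the last of these is itself a classical NF-kB target. Aoah removes secondary acyl chains from lipopolysaccharide, and the product is a weak TLR4 ligand.

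The RefSeq promoter windows on build GRCm38.p6, each from 250 bases before to 50 bases after a transcription start, hold 9 windows of 6 members. Tlr4, Ly96, Lbp and Cd14 are the other members. The windows of Tirap and Ticam1 are printed because these 2 members passed the test described below, and those of Nfkbia and Tnfaip3 because both genes are known NF-kB targets. Capitals mark matches, on either strand and with overlaps joined, to the loose NF-kB pattern, GGG and CC with any 5 bases between them. Coordinates lie on the minus strand for every window shown.
Tirap, first window, chr9:35199916-35200215: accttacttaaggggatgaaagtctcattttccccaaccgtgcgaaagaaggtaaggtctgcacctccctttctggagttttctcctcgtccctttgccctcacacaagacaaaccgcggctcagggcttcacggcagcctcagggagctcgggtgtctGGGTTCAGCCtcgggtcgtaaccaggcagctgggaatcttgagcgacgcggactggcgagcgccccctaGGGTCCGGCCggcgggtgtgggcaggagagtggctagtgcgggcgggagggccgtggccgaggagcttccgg
Ticam1, chr17:56276718-56277017: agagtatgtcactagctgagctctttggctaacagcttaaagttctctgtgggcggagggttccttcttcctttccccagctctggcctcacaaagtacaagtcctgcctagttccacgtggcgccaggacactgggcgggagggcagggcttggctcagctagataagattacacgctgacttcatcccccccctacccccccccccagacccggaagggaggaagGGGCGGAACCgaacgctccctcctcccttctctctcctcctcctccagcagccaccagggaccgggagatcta
Nfkbia, chr12:55492598-55492897: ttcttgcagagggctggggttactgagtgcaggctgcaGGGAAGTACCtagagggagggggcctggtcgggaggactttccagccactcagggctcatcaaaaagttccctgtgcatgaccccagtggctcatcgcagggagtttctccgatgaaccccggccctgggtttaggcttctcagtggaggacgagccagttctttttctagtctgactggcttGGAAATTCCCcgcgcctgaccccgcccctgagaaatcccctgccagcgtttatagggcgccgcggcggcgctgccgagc
Tnfaip3, first window, chr10:19015361-19015660: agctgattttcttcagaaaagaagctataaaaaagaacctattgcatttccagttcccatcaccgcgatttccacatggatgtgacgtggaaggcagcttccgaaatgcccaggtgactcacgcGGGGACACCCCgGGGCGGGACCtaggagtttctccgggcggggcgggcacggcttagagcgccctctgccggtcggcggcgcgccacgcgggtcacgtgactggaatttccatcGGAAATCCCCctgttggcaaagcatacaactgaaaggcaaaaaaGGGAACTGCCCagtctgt
The Myd88 window is printed for letters of another kind, with capitals over a STAT-type palindrome TTCNNNGAA and the interferon-type repeat, GAAA and GAAA with any 2 bases between them, which overlap.
Myd88, chr9:119339969-119340268: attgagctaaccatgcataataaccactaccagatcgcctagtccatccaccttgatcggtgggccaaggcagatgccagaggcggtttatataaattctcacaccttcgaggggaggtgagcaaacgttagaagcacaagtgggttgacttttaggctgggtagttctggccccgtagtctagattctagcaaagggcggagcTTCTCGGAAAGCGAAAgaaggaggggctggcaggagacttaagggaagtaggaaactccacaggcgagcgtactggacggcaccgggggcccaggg

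Matches to the loose NF-kB pattern numbered 2 in the first Tirap window, 1 in Ticam1, 2 in Nfkbia and 8 in the first Tnfaip3 window. Most of those 8 overlap, and the bases starting at -126 and at -125 match on both strands, each strand being counted. Windows not printed held 4 (second of Tirap), 2 (second of Tnfaip3), 5 (first of Irak3) and 0 (second of Irak3), and Myd88 held 0. This pattern is common: 50.8% of the 32851 promoter windows hold at least 1 match. Nfkbia carried GGAAATTCCC at position -29 and Tnfaip3 carried GGAAATCCCC at position -12, each given by its first base relative to the start. The strict NF-kB decamer, GGGAC followed at once by TTTCC, present in 0.155% of windows, were found in none of the members' windows. Myd88 carried TTCTCGGAA at position -46 and GAAAGCGAAA at position -40, patterns held by 8.30% and 3.44% of all windows. The C/EBP-type letters TTGCNNAA, in 10.8% of windows, occurred only in the second Irak3 window among the 9. A match describes letters and does not show that a factor binds there.

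Expression was read as TPM, a relative transcript abundance corrected for transcript length, on which levels of different genes can be set side by side. TPM does not keep the depth of a library, which is therefore unknown. Between 11478 and 12836 genes reached 1 TPM per tumour. The composition of 2 tumours stood apart: small noncoding RNA took 2.94% of TPM in Luc Aoah 3 and at most 0.308% in the other 13, and mitochondrially encoded RNA took 16.6% in LucOS Aoah 3 against 3.41% to 8.45% in the others. Markers of hepatocytes (10 genes), Kupffer cells (6), macrophages and monocytes (10) were detected in every tumour, and no marker of any cell type examined was at 0 in all tumours. Aoah itself ranged from 283.72 to 685.24 TPM in the Luc tumours given it and from 576.03 to 931.15 TPM in the LucOS tumours given it. LucOS vector tumours held 1.28 to 3.43 TPM, but Luc vector tumours 1 and 3 held 18.57 and 54.76 TPM against 0.74 and 0.89 TPM in tumours 2 and 4. Calls of the members are therefore also given without that pair.

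The strongest difference among the members was in Cd14, which encodes the surface and soluble protein that delivers lipopolysaccharide to the receptor. Luc vector tumours 1 to 4 held 40.62, 40.33, 38.91 and 25.10 TPM, and Luc Aoah tumours 1 to 4 held 6.94, 11.96, 4.52 and 4.74 TPM. Every Aoah tumour lay below every vector tumour, with a gap from 11.96 to 25.10 TPM. The means were 36.2 ± 7.46 TPM (SD, n = 4) with vector and 7.04 ± 3.46 TPM (SD, n = 4) with Aoah, a ratio of 0.194. Cd14 fell by 2.28 on the log2(TPM + 1) scale (SE 0.30, limma adjusted p = 0.000352), and by 2.03 relative to the median of all genes. LucOS vector tumours 1 to 3 held 15.33, 30.01 and 23.18 TPM, and LucOS Aoah tumours 4.80, 6.47 and 9.91 TPM. These groups did not overlap either. The ratio of means was 0.309 (22.8 ± 7.35 against 7.06 ± 2.61 TPM, SD, n = 3 each), and the log2 change was -1.57 (95% interval -2.32 to -0.81, SE 0.35). With an adjusted p of 0.0503 by limma it missed the threshold of 0.05. It passed when Luc Aoah 2 (adjusted p = 0.0320) or Luc Aoah 3 (adjusted p = 0.0464) was left out, tumours that enter this fit only through the shared spread. The adjusted p ran from 0.0244 to 0.195 over all alternatives. The Luc call held in all 22 alternatives, with changes from -2.53 to -1.96 and a highest adjusted p of 0.0169. Less RNA per cell and fewer cells that carry the transcript cannot be told apart in bulk tumours, here or for any member below.

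Lbp, the carrier gene, was the most abundant member in all 7 vector tumours and in 2 of the 7 Aoah tumours, and Nfkbia was in the other 5 Aoah tumours. Luc vector tumours held 77.38, 106.76, 129.38 and 66.60 TPM, and Luc Aoah tumours 24.49, 44.06, 13.66 and 15.61 TPM. The groups were separated by the interval from 44.06 to 66.60 TPM. Lbp fell by 2.01 (SE 0.42, limma adjusted p = 0.00670), from 95.03 ± 28.5 to 24.5 ± 13.9 TPM (SD, n = 4 each), a ratio of 0.257. The call was lost only without the Luc vector pair 1 and 3 (-1.89, adjusted p = 0.0922), a fit with fewer tumours. LucOS vector tumours spread widely, at 18.00, 77.69 and 54.55 TPM, and LucOS Aoah tumours held 25.18, 19.52 and 35.35 TPM, so that LucOS vector 1 was the lowest of the 6. The LucOS change of -0.70 (SE 0.49, limma adjusted p = 0.645) did not pass. It was -1.30 without LucOS vector 1 and -0.27 without LucOS vector 2.

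The receptor chain genes had higher values in Luc Aoah than in Luc vector tumours without passing the test. Tlr4, the signalling receptor, was low throughout: 1.19, 1.15, 1.21 and 1.75 TPM in Luc vector and 2.23, 2.01, 2.34 and 1.82 TPM in Luc Aoah tumours. All Aoah values were above all vector values, though Luc Aoah 4 exceeded Luc vector 4 by little. Tlr4 differed by 0.42 on the log2 scale (SE 0.21, limma adjusted p = 0.147). Ly96, which encodes the lipid-binding subunit MD-2, stood at 5.68, 5.81, 7.15 and 4.64 TPM in Luc vector and 9.89, 10.71, 8.73 and 9.10 TPM in Luc Aoah tumours. Again the groups did not overlap, with means of 5.82 ± 1.03 and 9.61 ± 0.880 TPM (SD, n = 4 each). The log2 change of 0.65 (SE 0.25) gave a limma adjusted p of 0.0701. It passed without LucOS Aoah 3 (adjusted p = 0.0251), with only the Luc groups in the fit (0.0440) and after each tumour was centred on its median gene (0.96, adjusted p = 0.00912). Tlr4 passed under that centring alone (0.73, adjusted p = 0.0297).

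LucOS tumours showed no such separation for either receptor chain. Tlr4 stood at 1.21, 1.26 and 2.37 TPM with vector and 1.35, 1.49 and 3.12 TPM with Aoah, and Ly96 at 5.60, 7.28 and 6.24 TPM with vector and 6.57, 6.45 and 15.86 TPM with Aoah. In both genes LucOS Aoah 3 was the highest of all 14 tumours. The log2 changes were 0.17 (SE 0.25, limma adjusted p = 0.872) for Tlr4 and 0.42 (SE 0.29, limma adjusted p = 0.634) for Ly96. Without LucOS Aoah 3 the Tlr4 change was -0.083 and the Ly96 change 0.033. Summed macrophage and monocyte markers ranged from 361 to 411 TPM in Luc Aoah tumours and from 110.3 to 172 TPM in their vector controls, with 4 of 10 markers called higher and none lower. Kupffer cell markers summed to 125 to 195 and 66.1 to 143 TPM in those groups, with 3 of 6 called higher. The macrophage markers Csf1r (-0.35) and Cd68 (-0.20) and the Kupffer cell marker Cd163 (-0.31) had negative changes in Luc. None of these passed (limma adjusted p-values 0.592, 0.723 and 0.523), and the other markers of both cell types had positive changes. LucOS Aoah 3 had the highest macrophage and monocyte sum of all tumours, 755 TPM, against 315 and 346 TPM in the other LucOS Aoah tumours and 162 to 363 TPM in LucOS vector tumours. The part of these cells in the Tlr4 and Ly96 values was not tested.

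**Figure D1:**
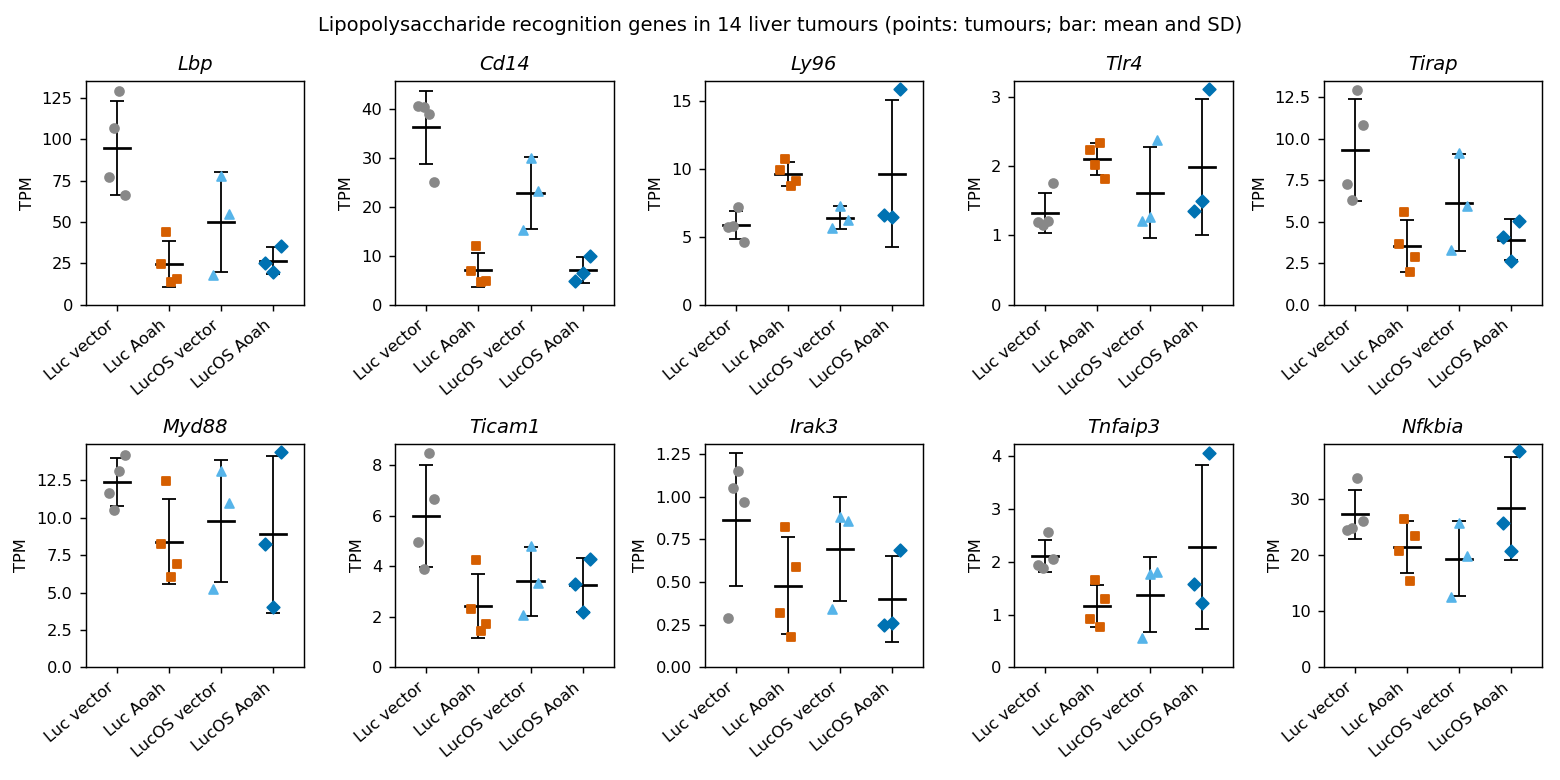
TPM of each of the 10 members (vertical axes, each from 0 on its own scale) in the 4 groups, with 1 point per tumour and bars for the mean and SD. Cd14 is lower in every Aoah tumour than in every vector tumour of the same model, while Ly96 and Tlr4 are higher in Luc Aoah than in Luc vector tumours, and LucOS Aoah 3 is the top point for Ly96, Tlr4, Myd88, Tnfaip3 and Nfkbia.

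The levels of the members were also set against each other within each tumour. Cd14 stood at 28.9 ± 9.80 times Tlr4 (SD, n = 4) in Luc vector tumours, with a range of 14.3 to 35.1. In Luc Aoah tumours it stood at 3.40 ± 1.77 times Tlr4 (SD, n = 4), with a range of 1.93 to 5.95. LucOS tumours held 15.4 ± 7.41 times with vector and 3.69 ± 0.595 times with Aoah (SD, n = 3 each), and these ranges did not overlap either (9.78 to 23.8 and 3.18 to 4.34). Relative to Ly96, Cd14 stood at 6.24 ± 0.940 in Luc vector and 0.714 ± 0.282 in Luc Aoah tumours. The ratio of Ly96 to Tlr4, the subunits of the receptor complex, was 4.596 ± 1.38, 4.62 ± 0.700, 4.35 ± 1.59 and 4.76 ± 0.388 in Luc vector, Luc Aoah, LucOS vector and LucOS Aoah tumours, with overlapping ranges. Lbp stood at 2.63 ± 0.580 times Cd14 in Luc vector and 3.38 ± 0.289 times in Luc Aoah tumours (SD, n = 4 each), again with overlap, and at 2.04 ± 0.758 and 3.94 ± 1.16 times in LucOS vector and LucOS Aoah tumours (SD, n = 3 each), without overlap. Ratios within a tumour do not depend on how the tumour was scaled, and they show unequal change only.

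**Figure D2:**
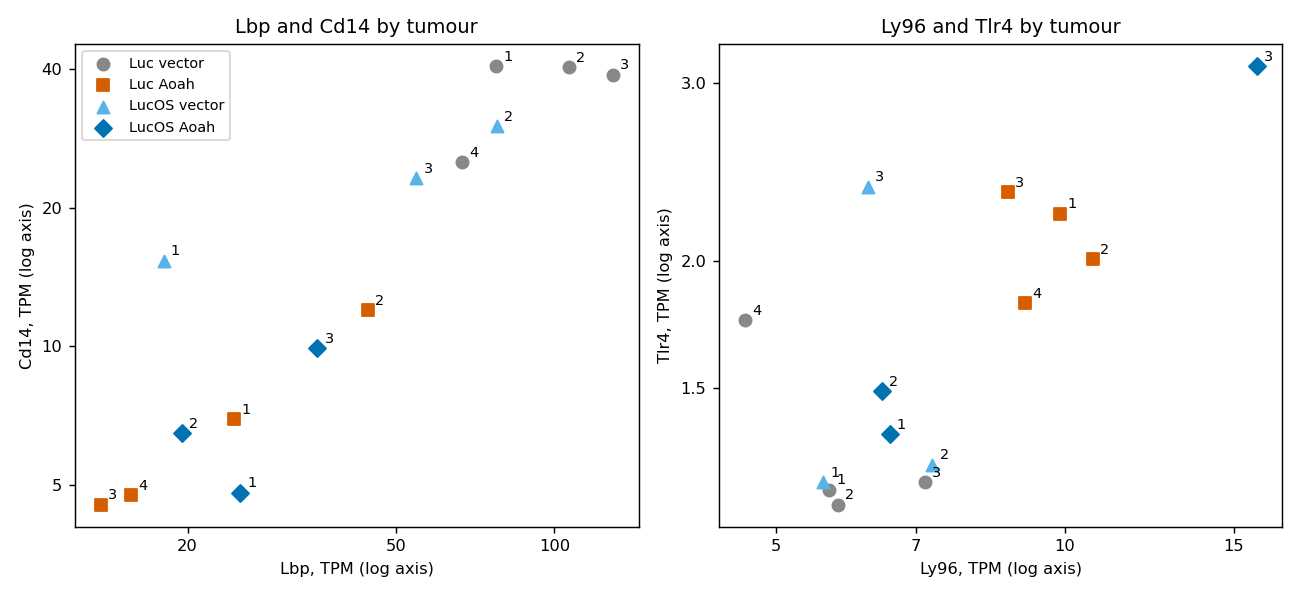
Left, Cd14 against Lbp, and right, Tlr4 against Ly96, in TPM on log axes, with 1 symbol per tumour and its replicate number. Vector tumours with the highest Lbp (77.38 to 129.38 TPM) also hold the most Cd14, LucOS vector 1 has low Lbp (18.00 TPM) with 15.33 TPM of Cd14, and Luc Aoah tumours lie together at the upper right of Luc vector tumours in Ly96 and Tlr4.

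Adaptor genes fell in Luc tumours where they passed. Tirap, which encodes the membrane-sorting adaptor that brings MyD88 to TLR4, stood at 7.26, 6.31, 12.92 and 10.82 TPM in Luc vector and 3.68, 5.60, 1.94 and 2.88 TPM in Luc Aoah tumours. The groups did not overlap, with a log2 change of -1.20 (SE 0.32) and a limma adjusted p of 0.0220. That call was lost without Luc Aoah 3 (adjusted p = 0.0696), Luc Aoah 4 (0.0706), Luc vector 3 (0.0776) or Luc vector 4 (0.0669), without the Luc vector pair 1 and 3 (-1.10, 0.184), and with no minimum level (0.0604). Ticam1, which encodes the endosomal adaptor TRIF, stood at 4.96, 3.88, 8.48 and 6.64 TPM in Luc vector and 2.32, 4.25, 1.44 and 1.70 TPM in Luc Aoah tumours. Luc Aoah 2 lay above Luc vector 2, so the groups overlapped. The log2 change of -1.05 (SE 0.30, limma adjusted p = 0.0281) passed. It no longer did without Luc Aoah 1 (0.0590), Luc Aoah 3 (0.0868), Luc Aoah 4 (0.0927), Luc vector 1 (0.0523), Luc vector 3 (0.0947) or Luc vector 4 (0.0803), without the Luc vector pair (-0.90, 0.226) or with no minimum level (0.0710).

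Myd88, the adaptor shared by most Toll-like receptors, stood at 11.69, 10.54, 13.11 and 14.22 TPM in Luc vector and 8.24, 12.46, 6.04 and 6.88 TPM in Luc Aoah tumours. Luc Aoah 2 lay within the vector range, and the log2 change of -0.55 (SE 0.34, limma adjusted p = 0.223) did not pass. In LucOS tumours the adaptors overlapped throughout. Vector tumours held 5.24, 13.12 and 11.01 TPM of Myd88 and Aoah tumours 8.23, 4.01 and 14.42 TPM. Tirap stood at 3.31, 9.16 and 5.93 TPM with vector and 4.07, 2.61 and 5.05 TPM with Aoah, and Ticam1 at 2.07, 4.78 and 3.35 TPM with vector and 3.29, 2.18 and 4.30 TPM with Aoah. The log2 changes were -0.19 (SE 0.39) for Myd88, -0.48 (SE 0.37) for Tirap and -0.03 (SE 0.35) for Ticam1, with limma adjusted p-values of 0.923, 0.685 and 0.990.

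No inhibitor gene passed in either model. Tnfaip3, which encodes the ubiquitin-editing enzyme A20, stood at 1.94, 1.88, 2.56 and 2.05 TPM in Luc vector and 0.91, 1.66, 0.77 and 1.29 TPM in Luc Aoah tumours. These groups did not overlap, yet the log2 change of -0.54 (SE 0.27, limma adjusted p = 0.140) missed the threshold. LucOS values were 0.55, 1.76 and 1.80 TPM with vector and 1.57, 1.22 and 4.06 TPM with Aoah, a log2 change of 0.42 (SE 0.31, limma adjusted p = 0.668) that was 0.062 without LucOS Aoah 3. Nfkbia, which encodes the cytoplasmic NF-kB inhibitor IkB-alpha, stood at 24.56, 24.82, 33.81 and 26.11 TPM in Luc vector and 20.79, 26.44, 15.44 and 23.37 TPM in Luc Aoah tumours. Luc Aoah 2 overlapped the vector group (log2 change -0.34, SE 0.25, limma adjusted p = 0.298). LucOS tumours held 12.54, 25.79 and 19.94 TPM of Nfkbia with vector and 25.84, 20.81 and 38.63 TPM with Aoah, a log2 change of 0.54 (SE 0.29, limma adjusted p = 0.494). Irak3, a kinase-dead member of the IRAK family that is best known in macrophages, stood at 0.29, 1.05, 1.15 and 0.97 TPM in Luc vector and 0.32, 0.82, 0.18 and 0.59 TPM in Luc Aoah tumours. In LucOS it stood at 0.34, 0.88 and 0.86 TPM with vector and 0.25, 0.26 and 0.69 TPM with Aoah. It reached 1 TPM in 2 tumours, fewer than the 3 required, and was not tested. With no minimum level it gave -0.33 in Luc (SE 0.20, limma adjusted p = 0.369) and -0.27 in LucOS (SE 0.23, limma adjusted p = 0.773).

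Of the 9 members tested, 4 fell in Luc tumours (Cd14, Lbp, Tirap and Ticam1) and none rose. Across all 13466 genes tested 22.2% were called in this comparison, 14.3% lower and 7.93% higher. The members' median log2 change was -0.55, against -0.24 over all genes. By range, 4 of the 10 members lay wholly below the vector group (Cd14, Lbp, Tirap and Tnfaip3) and 2 wholly above it (Tlr4 and Ly96), where 9.1% and 11.8% of all genes tested did so. In LucOS tumours limma called 0 of the 9, with 1 at an unadjusted p under 0.05 (Cd14), beside 0.965% of all genes called. By range 1 of the 10 members, Cd14, lay wholly below the vector group there and none wholly above it, where 6.07% and 6.22% of all genes tested did so. Centring each tumour on its median gene moved the median of all genes in Luc from -0.24 to 0.07 and the split of all calls from 35.7% higher to 52.1% higher. The member calls then became 4 lower and 2 higher in Luc and 1 lower (Cd14) in LucOS. With Luc Aoah 3, Luc Aoah 4, Luc vector 3 or Luc vector 4 left out in turn, 2 members were called in Luc, and without the Luc vector pair 1 was (Cd14).

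**Figure D3:**
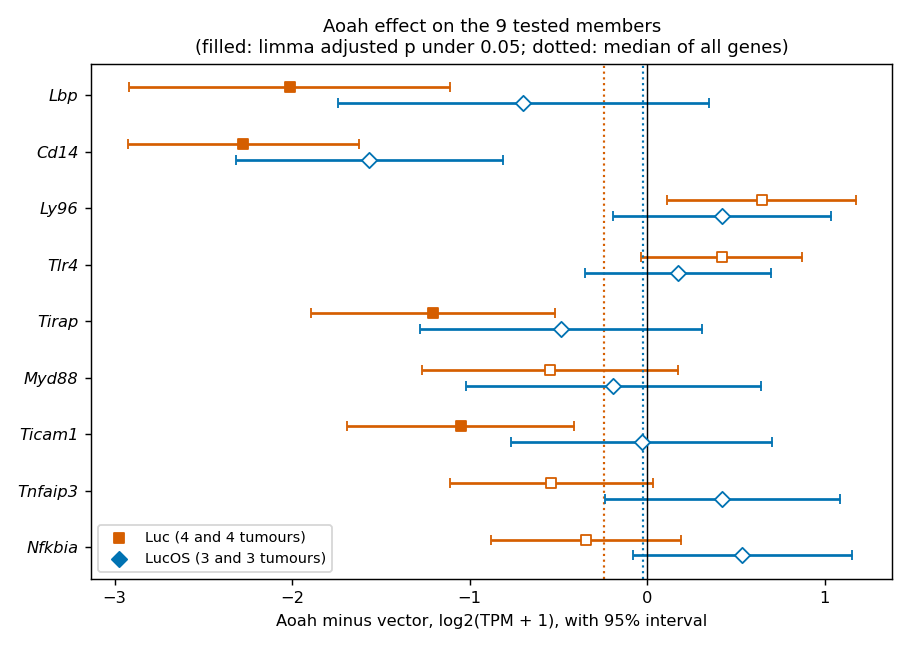
Log2(TPM + 1) difference between Aoah and vector tumours (horizontal axis) with its 95% interval for the 9 tested members, in Luc (squares) and LucOS (diamonds), filled where the limma adjusted p was under 0.05. Lbp and Cd14 reach -2.01 and -2.28 in Luc, Ly96 and Tlr4 lie above 0 in both models, and Tnfaip3 and Nfkbia lie below 0 in Luc and above it in LucOS.

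The difference between the Aoah effects in the 2 models was tested directly. None of the 9 members passed, with limma adjusted p-values from 0.443 to 0.761, and 3 of 9 had an unadjusted p under 0.05 (Tnfaip3, Nfkbia and Ticam1), where 10.2% of all genes did and 0.00743% were called. LucOS minus Luc, the effect on Tnfaip3 differed by 0.96 (95% interval 0.09 to 1.84), that on Nfkbia by 0.88 (0.07 to 1.70) and that on Ticam1 by 1.02 (0.04 to 1.99). Lbp differed by 1.32 (-0.06 to 2.70) and Cd14 by 0.71 (-0.28 to 1.70). With a tumour left out, the difference was as low as 0.60 for Tnfaip3 (without LucOS Aoah 3), and, without LucOS vector 1, as low as 0.61 for Nfkbia, 0.78 for Ticam1, 0.72 for Lbp and 0.46 for Cd14. The 3 smallest-p members therefore had a fall or a lower mean in Luc and a change near 0 or a higher mean in LucOS, with no call on that difference. LucOS Aoah 3, the highest tumour for Tnfaip3 and Nfkbia, is the tumour with the raised mitochondrial share. A fit of TPM rescaled without mitochondrial and small noncoding RNA also called none of the 9 members on this difference. The part of that share in the Tnfaip3 and Nfkbia values was not tested further.

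No member passed when LucOS tumours were compared with Luc tumours. Between vector tumours, LucOS minus Luc, 7 of 9 changes were negative, as were 9551 of the 13466 changes over all genes, from -1.09 for Lbp (SE 0.46, unadjusted p = 0.0308) to 0.15 for Tlr4, and none passed (limma adjusted p-values 0.344 to 0.797). In the same comparison no gene was called (0% of 13466), although 14.2% had an unadjusted p under 0.05. Tnfaip3 was the only member whose ranges did not overlap, at 0.55 to 1.80 TPM in LucOS vector and 1.88 to 2.56 TPM in Luc vector tumours, and 7.63% of all genes were separated in that direction. None of the 10 lay wholly higher in LucOS vector tumours, where 2.12% of all genes did. Between Aoah tumours the changes ran from -0.11 for Ly96 to 0.53 for Tnfaip3 with limma adjusted p-values of 0.771 to 0.990, 0 of 9 had an unadjusted p under 0.05, and every member overlapped, where 2.2% of all genes lay wholly higher and 5.28% wholly lower in LucOS Aoah tumours. Cd14 stood at 7.04 and 7.06 TPM in the Luc and LucOS Aoah groups, a log2 difference of 0.04 (95% interval -0.66 to 0.75). All genes called there came to 0.0817%.

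Ordered by mean TPM, Cd14, Lbp, Myd88, Ticam1 and Tirap ran from Luc vector through LucOS vector and LucOS Aoah to Luc Aoah. For Cd14 only the step from LucOS vector to LucOS Aoah separated neighbours, and for the others no neighbours in the order were apart. Tlr4 ran from Luc Aoah through LucOS Aoah and LucOS vector to Luc vector, and Ly96 from LucOS Aoah through Luc Aoah and LucOS vector to Luc vector. Between neighbours in the Ly96 order, Luc Aoah (8.73 to 10.71 TPM) lay above LucOS vector (5.60 to 7.28 TPM), while all neighbours in the Tlr4 order overlapped. Tnfaip3 and Nfkbia had their highest means in LucOS Aoah, where tumour 3 was the highest, followed by Luc vector. In the Tnfaip3 order Luc vector lay above its next neighbour LucOS vector, and no other neighbours of these genes or of Irak3 were apart. Over all 14 tumours the highest value was 9.47 times the lowest for Lbp, 8.99 times for Cd14 and 7.38 times for Tnfaip3, and 2.71 times for Tlr4. LucOS Aoah 3 held the highest value of 5 members and Luc Aoah 3 the lowest value of 5, and these are the tumours whose composition stood apart. Luc vector 3, which is not among them, held the highest value of 4. The median log2(TPM + 1) of all genes tested was 2.67 in Luc Aoah 3, the lowest of the 14 tumours. The part of composition in these extremes was not tested.

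The authors' deposited table of their own Luc comparison called 7 of the 10 members at an adjusted p under 0.05, beside 31.7% of all genes with an adjusted p. It had 5 lower (16.1% of its genes were lower): Cd14 at -2.19 (SE 0.29, adjusted p = 2.31e-12), Lbp at -1.81 (SE 0.32, adjusted p = 3.6e-07), Tirap at -1.17, Ticam1 at -1.08 and Tnfaip3 at -0.63 (adjusted p = 0.0278). The authors' deposited table had 2 higher (15.6% of its genes were higher), Tlr4 at 0.99 (SE 0.26, adjusted p = 0.00142) and Ly96 at 0.99 (SE 0.27, adjusted p = 0.00177), the receptor chains that did not pass on the TPM scale. In the authors' deposited table for LucOS only Cd14 was called, at -1.69 (SE 0.34, adjusted p = 0.000224), beside 2.77% of all genes called and 0.78% called lower. Lbp stood at -0.86 (adjusted p = 0.299) in the authors' deposited table for LucOS. These tables do not state which group is the numerator. Aoah has a positive fold change in both, which sets the direction used here.

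Other genes of the pathway were taken as lists. Among 26 tested components that carry the signal, such as kinases, ubiquitin-linked adaptors and NF-kB subunits, 6 fell and 1 rose in Luc tumours, where 14.3% of all genes tested fell and 7.93% rose. The list's median was -0.56 against -0.24 over all genes. Tab2, which tethers the kinase TAK1 to ubiquitin chains, fell from 29.7 ± 6.74 to 12.5 ± 5.97 TPM (SD, n = 4 each; log2 change -1.26, limma adjusted p = 0.0164). Rela, the main transactivating NF-kB subunit, fell from 15.7 ± 4.53 to 5.96 ± 5.20 TPM (-1.54, limma adjusted p = 0.0363). Irak1, the kinase recruited by MyD88, and Tab1, the activator of TAK1, fell by 1.11 and 0.77 on the log2 scale (limma adjusted p-values 0.0386 and 0.0403). Ly86, which encodes MD-1, the partner of the TLR4 relative RP105, was the riser, from 7.44 ± 0.831 to 16.3 ± 1.09 TPM (1.04, limma adjusted p = 0.0497), and is named after its value was seen. LucOS tumours gave 0 of 26 with a median of 0.07. The Luc count of 7 depended on single tumours. It was 0 with no minimum level, without the Luc vector pair, or without Luc Aoah 4, Luc vector 3 or Luc vector 4, and 1 without Luc Aoah 1, Luc Aoah 3 or Luc vector 1. It was 2 without LucOS Aoah 1 and 3 without LucOS vector 3, but 13 without Luc Aoah 2 and 11 without Luc vector 2. With a tumour left out, limma adjusted p reached 0.0566 for Tab2, 0.113 for Rela, 0.122 for Irak1, 0.131 for Tab1 and 0.121 for Ly86. Over all alternatives limma adjusted p reached 0.159 for Tab2, 0.248 for Rela, 0.279 for Irak1, 0.263 for Tab1 and 0.234 for Ly86. The authors' deposited Luc comparison called Ly86 (1.43), Cd180 (1.05), Irf5 (0.75), Ube2n (0.60) and Ikbkg (0.50) higher, beside 15.6% of all genes. Irak1, Tab1, Tab2, Rela, Nfkb2, Traf6, Traf3, Ripk1, Hsp90b1 and Cnpy3 were lower there, beside 16.1%.

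Among 17 tested genes of other brakes and feedback, only Bcl3, an atypical nuclear IkB protein, passed in Luc, falling from 22.95 ± 5.43 to 6.07 ± 2.41 TPM (SD, n = 4 each; -1.79, limma adjusted p = 0.00171). The Bcl3 call held in all 22 alternatives, and more brakes fell without Luc Aoah 2 (7), LucOS Aoah 3 (3), Luc vector 2 (2) or LucOS vector 1 (2). In LucOS no brake passed, and Bcl3 stood at 10.2 ± 4.18 TPM with vector and 10.1 ± 3.53 TPM with Aoah. The 7 other Toll-like receptors tested gave no call in either model, with medians of 0.06 in Luc and 0.29 in LucOS, except for 1 rise in Luc without LucOS Aoah 3. The authors' deposited Luc comparison (15.6% of genes higher, 16.1% lower) called Tlr1 (1.04), Tlr2 (1.30) and Tlr12 (1.94) higher and none of these receptors lower. In LucOS it called only Tlr12 (2.45, higher), which was too low to be tested here. Among the brakes their Luc comparison had Trim30a, Nfkbie and Atf3 higher and Bcl3, Nfkbiz and Tnip2 lower.

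Cytokines and effectors that lipopolysaccharide can induce moved in both directions. Of 22 listed genes 15 were tested, because Tnf, Il12b, Il10, Cxcl2, Nos2, Ptgs2 and Acod1 were too low. In Luc 5 of the 15 fell and 2 rose, beside 14.3% and 7.93% of all genes, with a median of -0.68. Icam1, a leukocyte adhesion molecule, fell from 30.5 ± 4.71 to 11.2 ± 3.70 TPM (-1.40, limma adjusted p = 0.00318). The neutrophil chemokine gene Cxcl1 fell from 111 ± 38.2 to 29.7 ± 6.52 TPM (-1.82, limma adjusted p = 0.00375), and Saa3, an acute phase apolipoprotein of inflamed tissue, from 863 ± 228 to 451 ± 101 TPM (-0.93, limma adjusted p = 0.0221). The T cell chemokine gene Ccl5 rose from 11.6 ± 4.68 to 41.8 ± 17.0 TPM (1.77, limma adjusted p = 0.00892; SD, n = 4 each throughout). The count of 7 became 4 without Luc Aoah 3, Luc vector 1 or Luc vector 3 and 3 without Luc Aoah 4, and Saa3 was lost without Luc Aoah 4 or Luc vector 1 (highest adjusted p 0.0845). Without the Luc vector pair 1 and 3 the only call of the list was the Ccl5 rise, with adjusted p-values of 0.0794 for Icam1 and 0.0913 for Cxcl1. With no minimum level 2 fell and 1 rose. Called higher in the authors' deposited Luc comparison were Il1b (1.27), Il1a (0.86), Cxcl10 (1.63), Ccl2 (1.62), Ccl4 (1.72) and Ccl5 (2.17). So were Il12b (4.19) and Acod1 (2.75), which were too low to be tested here. Lower there were Il6 (-2.85), Cxcl1 (-1.62), Icam1 (-1.2), Vcam1 (-0.65), Il1rn (-1.23) and Ptges (-2.26), and Saa3 was not called. More of the list was thus higher than lower there, beside 15.6% and 16.1% of all genes.

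In LucOS 2 of the 15 fell and 2 rose, beside 0.215% and 0.75% of all genes. Cxcl1 fell from 115 ± 44.5 to 32.2 ± 18.6 TPM (-1.89, limma adjusted p = 0.0391) and Saa3 from 1245 ± 289 to 406 ± 85.4 TPM (-1.61, limma adjusted p = 0.0217). Ccl5 rose from 14.7 ± 9.74 to 65.1 ± 23.0 TPM (2.19, limma adjusted p = 0.0343; SD, n = 3 each), and so did Cxcl10, an interferon-induced chemokine gene named after its value was seen (2.39, limma adjusted p = 0.0466). None of the 4 was called without LucOS Aoah 1 or LucOS Aoah 3, with no minimum level or with only the LucOS groups in the fit, and only Saa3 without the Luc vector pair. Without Luc Aoah 1, Luc vector 3, LucOS vector 1 or LucOS vector 3 there was 1 call, and without Luc vector 4 or LucOS vector 2 there were 2. The highest adjusted p with a tumour left out was 0.183 for Cxcl1, 0.0959 for Saa3, 0.170 for Ccl5 and 0.192 for Cxcl10. The authors' deposited LucOS comparison called all 4 in the same directions: Cxcl1 (-1.81), Saa3 (-1.60), Ccl5 (2.05) and Cxcl10 (2.61). No other gene of the list was called there, where 0.78% of all genes were lower and 1.99% higher. Summed neutrophil markers ranged from 51.3 to 102 TPM in Luc Aoah tumours and from 139 to 388 TPM in Luc vector tumours, with 4 of 7 tested markers called lower, and from 127 to 450 TPM in LucOS Aoah tumours and from 404 to 913 TPM in LucOS vector tumours, with none called. Summed T and NK cell markers ranged from 60.2 to 105 TPM in Luc Aoah tumours and from 5.58 to 18.8 TPM in Luc vector tumours, with 6 of 9 called higher. In LucOS they ranged from 68.3 to 166 TPM with Aoah and from 15.3 to 62.9 TPM with vector, also without overlap, with all 9 changes positive and 1 called. The part of these cells in the Cxcl1, Saa3 and Ccl5 values was not tested.

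Genes of lipopolysaccharide carriage, clearance and cytosolic sensing had a median of 0.38 in Luc and 0.59 in LucOS over 15 tested. In Luc 3 rose and 1 fell, beside 7.93% and 14.3% of all genes. Scarb1, the lipoprotein receptor that also takes up lipopolysaccharide, fell from 102 ± 10.9 to 38.0 ± 20.8 TPM in Luc (-1.54, limma adjusted p = 0.00947). Casp1, the inflammasome protease, rose from 3.74 ± 0.306 to 9.51 ± 1.65 TPM (1.14, limma adjusted p = 0.0216), and the interferon-induced guanylate-binding protein genes Gbp3 and Gbp2 rose by 1.73 and 1.72 (limma adjusted p-values 0.0274 and 0.0306). The Gbp genes are near-identical in places, and how their reads were divided among them is uncertain. None of the 15 passed in LucOS, though 2 rose without LucOS Aoah 2 or LucOS vector 2. Without the Luc vector pair none of these 4 was called (adjusted p = 0.120 for Scarb1), and with no minimum level only Scarb1 was. The 3 rises in Luc were lost without Luc Aoah 4, Luc vector 3 or Luc vector 4, and 1 rise was called without Luc Aoah 3 or Luc vector 1. With a tumour left out, the highest adjusted p was 0.0705 for Casp1, 0.0889 for Gbp3 and 0.1003 for Gbp2. The authors' deposited LucOS comparison did call Gbp2 (2.36), Gbp3 (2.17) and Gbp5 (2.44) higher, beside 1.99% of all genes. No gene of the list was called lower there. The authors' deposited Luc comparison called Casp1, Gbp2, Gbp3, Gbp5, Apoa1, Apoe and Itgb2 higher and Scarb1 lower, beside 15.6% and 16.1% of all genes.

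The acute phase list, hepatocyte genes that respond to interleukin-6 and Stat3 and whose class includes Lbp, held the most calls of the 6 lists in Luc. There 14 of 26 fell and none rose, beside 14.3% and 7.93% of all genes, with a median of -0.93. The 4 positive changes, in Saa1 (0.95), Saa2 (0.89), Hpx (0.28) and Apcs (0.06), did not pass. In the authors' deposited Luc comparison Saa1 alone of the list was called higher (1.80, DESeq2 adjusted p = 0.0454). Those lower there included Socs3, Serpina3n, Il1r1 and A2m. Socs3, the feedback inhibitor of Stat3 signalling, fell from 25.8 ± 5.41 to 2.80 ± 1.08 TPM (-2.85, limma adjusted p = 0.000151), the serpin gene Serpina3n from 500.1 ± 187 to 54.6 ± 41.3 TPM (-3.34, limma adjusted p = 0.00147), and Il1r1, the interleukin-1 receptor gene, from 58.7 ± 6.18 to 19.96 ± 9.71 TPM (-1.62, limma adjusted p = 0.00229; SD, n = 4 each). A2m, the protease inhibitor alpha-2-macroglobulin, fell by 4.72 (limma adjusted p = 0.00419), a call lost without the Luc vector pair (adjusted p = 0.0675). In LucOS 23 of 26 changes were negative, where 7068 of 13466 were over all genes, with a median of -0.89, but only Socs3 passed, from 16.8 ± 7.26 to 3.77 ± 2.22 TPM (SD, n = 3 each; -1.92, limma adjusted p = 0.0335), and that call was lost without Luc Aoah 1, Luc vector 1, 3 or 4, LucOS Aoah 1 or 3, or LucOS vector 2 or 3 (highest adjusted p 0.144), without the Luc vector pair, with no minimum level and with only the LucOS groups in the fit. The Luc count was 8 without Luc Aoah 4, 9 without Luc Aoah 3 or Luc vector 3, and 3 without the Luc vector pair. The LucOS count was 2 without Luc Aoah 2 or LucOS Aoah 2 and 4 without LucOS vector 1. The authors' deposited LucOS comparison called more of this list: Serpina3n (-2.54), Il1r1 (-1.30), Fgg, Socs3, Fga, Fgb and Apcs were lower. None of the list was higher there, and 0.78% of all genes were lower. Summed hepatocyte markers ranged from 9428 to 28152 TPM in Luc Aoah tumours and from 7427 to 10456 TPM in Luc vector tumours, with 4 of 10 called higher and none lower. Apob (-0.52) and Cps1 (-0.77) had negative changes that did not pass (limma adjusted p-values 0.0963 and 0.0609). In LucOS the sum ranged from 10813 to 22365 TPM with Aoah and from 4833 to 10991 TPM with vector, with 1 of 10 called higher. The part of hepatocyte content in the Lbp and acute phase values was not tested. Which cells carried the Cd14 transcript was not measured.

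**Figure D4:**
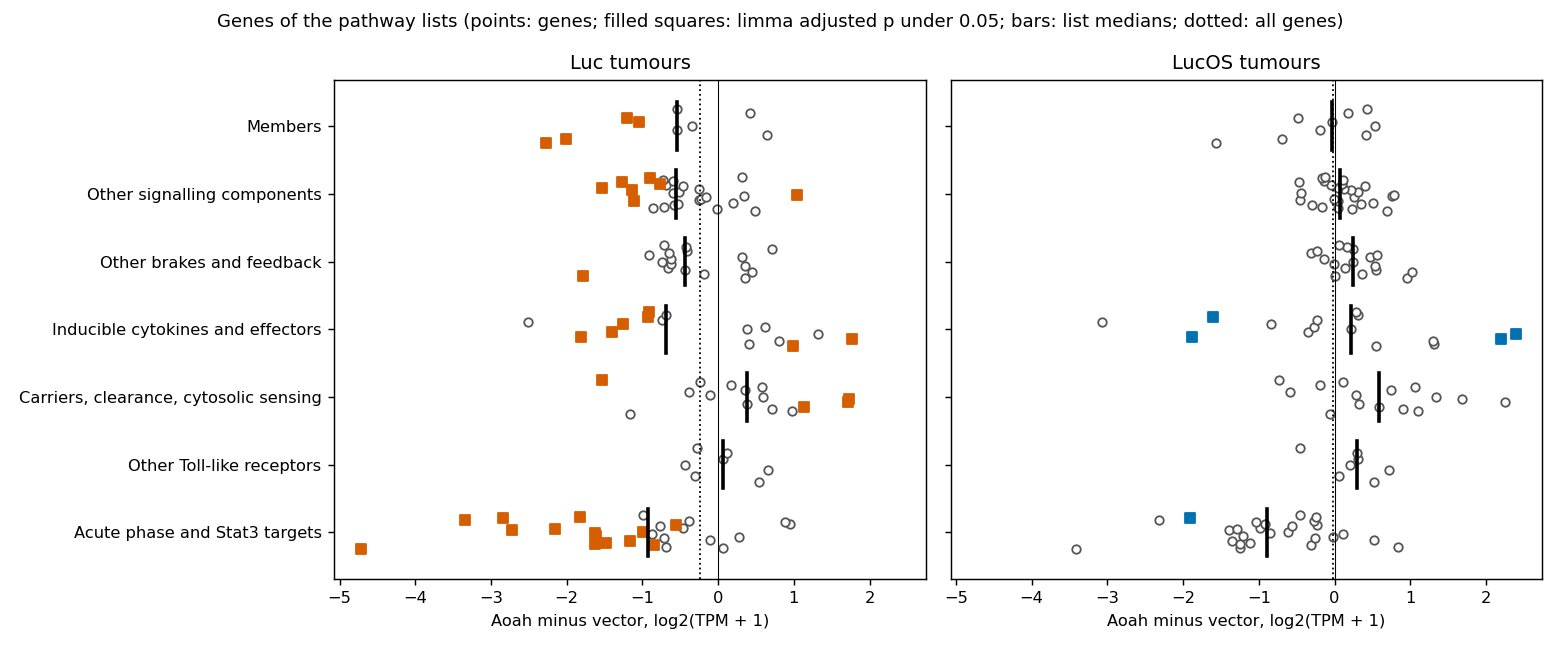
Log2(TPM + 1) difference between Aoah and vector tumours for every tested gene of the members and the 6 lists (1 point per gene, filled squares where the limma adjusted p was under 0.05, thick bars at list medians, dotted lines at the median of all genes), in Luc on the left and LucOS on the right. The acute phase list lies lowest in both panels, with medians of -0.93 and -0.89, and carriers and cytosolic sensors lie highest, with medians of 0.38 and 0.59.

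The genes whose log2(TPM + 1) pattern over the 14 tumours was most like that of Cd14 were Serpina3n (Pearson r = 0.982), Scara5 (0.958) and Socs3 (0.956). Those most like Lbp were Itih3 (0.981), Slc39a14 (0.980) and Lcn2 (0.968), and those most like Tlr4 were Clec12a (0.933), P2ry10b (0.927) and Pilra (0.921). Spearman's rho was 0.886 to 0.974 over these 9 pairs. The 14 tumours include groups that differ in these genes and share their libraries' scaling, so the coefficients describe likeness over these tumours and were not tested. Serpina3n ranged from 26.77 to 671.28 TPM and Itih3 from 118.56 to 673.35 TPM, while Clec12a, a myeloid lectin, ranged from 4.09 to 31.63 TPM.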

How the data were processed

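RNA of 14 bulk tumours was extracted with TRIzol and captured on poly-T beads, per the labels' protocols. The deposited table holds log2 values of TPM plus 1, for which the submitters' processing notes list RSEM and build mm39, with no version. No aligner and no strand setting are given in the sources used here, so overlapping genes may share reads. TPM was recovered from these values and carries no depth, so no counting interval is given. Genes at 1 TPM or more in at least 3 tumours (13466 of 29923) entered a fit of log2(TPM + 1) by limma (3.58.1, under R 4.3.3), with 1 mean per group, a variance trend, robust moderation and Benjamini-Hochberg adjustment at 0.05. Fold changes on this scale understate those of low genes. The fit was tested on simulated data. The authors' 2 deposited DESeq2 tables give log2 fold changes and p-values for Ensembl identifiers, named here through GENCODE names on GRCm38. The count of reads per gene and the deposited receptor repertoire table were not used here.

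Members and lists were chosen with earlier results of these data known, so they are not independent evidence. All members are named. From each list the text names up to 4 called genes with the smallest p in Luc, and for Tlr4, Cd14 and Lbp the 3 most similar genes, without predicted genes. Alternatives were a pseudocount of 0.1, no minimum level, only the groups compared, no trend or robust step, median centring, TPM rescaled without mitochondrial and small noncoding RNA, the replicate number as a block, no Luc vector pair 1 and 3, and each tumour left out. Promoter sequences are from RefSeq.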

Additional observations from a re-analysis of the deposited data

Results flagged for a closer look

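Among the 20 groups of 4 tumours formed by the 10 members in Luc vector and Luc Aoah tumours, 3 held a tumour far from the other 3 by Dixon's test, where chance alone marks about 1 group in 20. All lay in the Luc vector group. Tlr4 stood at 1.75 TPM in Luc vector 4, above 1.15 to 1.21 TPM in the other tumours of that group. Cd14 stood at 25.1 TPM in the same tumour, below 38.91 to 40.62 TPM in the others, and Luc vector 4 was still above every Luc Aoah tumour for Cd14 and below every Luc Aoah tumour for Tlr4. Nfkbia stood at 33.81 TPM in Luc vector 3, above 24.56 to 26.11 TPM in the others. Groups of 3 were not examined this way.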

How the results depend on the processing

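Directions of the members held in all 22 alternatives in Luc tumours, while values near 0 turned in other comparisons. Counts of members called changed in Luc from 4 to 2 with no minimum level, 2 with the block and 1 without the Luc vector pair, and to 2 to 5 with a tumour left out. After median centring 4 members were called lower and 2 higher in Luc. In LucOS the count changed from 0 to 1 after median centring, and to 0 to 1 with a tumour left out. Counts over all genes in Luc changed from 2988 to 1288 with no minimum level, 1168 with the block, 361 without the pair and 867 to 5269 with a tumour left out. The LucOS count changed from 130 to 15 with no minimum level, 6 with only the groups compared, 218 after median centring, 34 with the block, 22 without the pair and 13 to 353 with a tumour left out. The count for the difference between models changed from 1 to 2 with no minimum level and to 0 with the pseudocount of 0.1, median centring, rescaled TPM, the block and no pair (0 to 2 with a tumour left out). LucOS against Luc gave 0 calls among vector tumours, 4 with no minimum level, 2 with only the groups compared and 0 to 3 with a tumour left out. Among Aoah tumours it gave 11, then 4 with the pseudocount of 0.1, 6 with no minimum level, 2 with only the groups compared, 3 with rescaled TPM, 0 with the block, 2 without the pair and 1 to 14 with a tumour left out. The share of Luc calls that were higher was 35.7%, and 55.4% with no minimum level, 48.8% with only the groups compared, 58.3% with the block and 73.4% without the pair. The causes of these shifts were not tested.

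No value that turned had passed the test in the comparison in which it turned. With a tumour left out, the LucOS change ranged from -0.58 to 0.23 for Myd88, -0.27 to 0.19 for Ticam1 and -0.083 to 0.37 for Tlr4, and with rescaled TPM it was 0.032 for Ticam1. The difference between models for Myd88 ranged from -0.036 to 0.77, and the vector comparison for Tlr4 from -0.0495 to 0.25. Between Aoah tumours the ranges were -0.20 to 0.30 for Cd14, -0.49 to 0.095 for Ly96, -0.42 to 0.39 for Myd88, -0.038 to 0.35 for Tirap and -0.35 to 0.0502 for Tlr4, with Myd88 at 0.033 under rescaled TPM and Cd14 at -0.10 under the block.

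Replicate numbers are shared between groups, but nothing in the labels makes a number a shared animal, litter or day. Deviations from the group means correlated at 0.00134, -0.550, -0.394 and -0.113 for Luc numbers 1 to 4, and at 0.0956, -0.554 and -0.0874 for LucOS numbers 1 to 3, so the numbers were not taken as pairing. With the replicate block, Luc calls among members went from 4 to 2 (Cd14 and Lbp), all Luc calls from 2988 to 1168 and all LucOS calls from 130 to 34. Depth cannot be read from TPM, so what depth limits is unknown for Irak3, Tlr4 and Tnfaip3, the members at the lowest levels.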
